A study of Mus musculus with 495 samples.

Results

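Thymosin transcripts followed opposite patterns in the endocrine lineage of the mouse embryonic pancreas. Tmsb4x, Tmsb10 and the actin-binding gene Cotl1 had higher summed levels in Neurog3-positive progenitor cells, and Tmsb15b2 and Tmsb15l in hormone cells. The genes described are these 5 rows of a count table of 23002 rows, selected on the ratio of their levels in hormone and progenitor cells in earlier results of the same data. That contrast is therefore a description, and no test of it was made. All 5 rows were present in the table and held at least 20 counts per 1000000 counts (CPM) in hormone or progenitor cells at E17.5 and at E15.5.

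Beta-thymosins are small proteins that bind actin monomers and hold them back from filaments, so that a cell keeps a reserve of unpolymerised actin. Tmsb4x and Tmsb10 encode thymosin beta 4 and beta 10, which are abundant in many embryonic tissues. Tmsb15b2 and Tmsb15l belong to the Tmsb15 group of beta-thymosins on the X chromosome, and Cotl1 encodes coactosin-like 1, a filamentous actin-binding protein of the cofilin family. In the pancreas, the transcription factor Neurog3 is switched on briefly in epithelial progenitors that then leave the epithelium and become hormone cells, and the transcription factor Fev follows Neurog3 before hormone genes are expressed.

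Cells came from 7 plates of embryonic pancreas processed with Smart-Seq2, a full-length single-cell method, at 1 cell per well. Plates EA06 and EA07 carried the Neurog3-cre plate code and held 57 and 72 cells of E17.5 embryos of the Neurog3-Cre; Rosa-mTmG genotype, in which Cre driven by Neurog3 switches on a membrane GFP in cells that have expressed it and in their descendants. The other 5 plates held cells of E15.5 embryos of the Neurog3-eGFP knock-in line: EA01 and EA03 carried the Neurog3 code with 73 and 70 cells, EA02 and EA05 the endocrine code with 72 and 85 cells, and EA04 the duct code with 66 cells. Every cell analysed therefore came from an embryo with a Neurog3 reporter or lineage label, and stage, reporter and plate changed together. The sources used here do not give the sort gates.

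Classes were set from each cell's own CPM. A cell was called hormone-positive with Ins1, Ins2, Gcg, Sst, Ghrl or Ppy at 1000 CPM or more, Neurog3-positive with Neurog3 at 20 CPM or more, and Fev-positive with Fev at 20 CPM or more. Hormone cells were hormone-positive and Neurog3-negative, and progenitor cells were Neurog3-positive and hormone-negative. There were 30 hormone cells at E17.5 and 98 at E15.5, and 186 progenitor cells, of which 55 were of E17.5 and the rest of E15.5, with 7 on EA05. Over the 6 plates, 14 cells lay between 10 and 40 CPM of Neurog3 and 16 had a highest hormone between 500 and 2000 CPM. The labels name no animal or litter, so each class of cells is 1 sample. A level is the summed counts of a class per 1000000 summed counts of its cells, and a log2 ratio has 5 CPM added to each level, which understates the ratio of low genes. Brackets give exact 95% intervals, which cover counting error only.

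The 4 thymosin coding sequences are shown because they carry the relation between the genes and the reason that some reads cannot be assigned to 1 of them. All are on mouse build GRCm38, minus strand, from GENCODE M21 transcripts, written 5′ to 3′ without the stop codon. Capitals mark the run of 10 bases that all 4 have in common, the longest such run.
Tmsb4x: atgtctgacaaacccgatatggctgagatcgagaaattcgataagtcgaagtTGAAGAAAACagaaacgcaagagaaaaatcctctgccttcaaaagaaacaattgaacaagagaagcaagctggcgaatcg
Tmsb10: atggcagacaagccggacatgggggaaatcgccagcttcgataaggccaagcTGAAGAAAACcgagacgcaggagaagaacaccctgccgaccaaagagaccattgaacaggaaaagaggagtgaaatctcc
Tmsb15b2: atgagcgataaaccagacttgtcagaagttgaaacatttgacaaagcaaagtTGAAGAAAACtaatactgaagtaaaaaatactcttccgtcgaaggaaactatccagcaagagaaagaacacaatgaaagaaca
Tmsb15l: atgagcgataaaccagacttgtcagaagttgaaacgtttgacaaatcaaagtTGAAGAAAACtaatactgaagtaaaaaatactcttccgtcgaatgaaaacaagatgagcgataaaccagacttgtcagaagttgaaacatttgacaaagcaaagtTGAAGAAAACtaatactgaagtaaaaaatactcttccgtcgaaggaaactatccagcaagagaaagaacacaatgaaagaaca
Tmsb4x and Tmsb10, of 44 codons each, were identical at 92 bases (69.7%) when aligned without gaps. Tmsb15b2 has 45 codons, and aligned from the start codon it was identical to Tmsb4x at 86 bases (65.2%) and to Tmsb10 at 74 (56.1%). Tmsb15l has 80 codons and holds the capitalised run at 2 places. Its last 45 codons are the whole coding sequence of Tmsb15b2, and its first 100 bases are identical to the start of Tmsb15b1, a neighbouring thymosin gene.

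Tmsb4x (ENSMUSG00000049775.16) lies at chrX:167207093-167209315, Tmsb10 (ENSMUSG00000079523.8) at chr6:72957347-72958748 and Cotl1 (ENSMUSG00000031827.13) at chr8:119809222-119840544, and no other annotated gene overlaps any of them. Tmsb15l (ENSMUSG00000072955.14) at chrX:136954988-136976869, Tmsb15b2 (ENSMUSG00000089996.6) at chrX:136955265-136975497 and Tmsb15b1 (ENSMUSG00000089768.2) at chrX:136974022-136976874 overlap one another on the same strand. The Tmsb15l transcript begins with exons of Tmsb15b1 and ends with exons of Tmsb15b2. Of its 816 exonic bases, 216 are shared with Tmsb15b1 and 323 with Tmsb15b2, and 277 belong to no other of the 3 genes. Of the 550 exonic bases of Tmsb15b2, 23.1% are its own, and of the 439 of Tmsb15b1, 50.8%. A read within a shared exon fits more than 1 gene, and how the authors' counting treated such reads is not given in the sources used here. The split of counts between Tmsb15b2, Tmsb15l and Tmsb15b1 is uncertain for this reason.

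**Figure D1:**
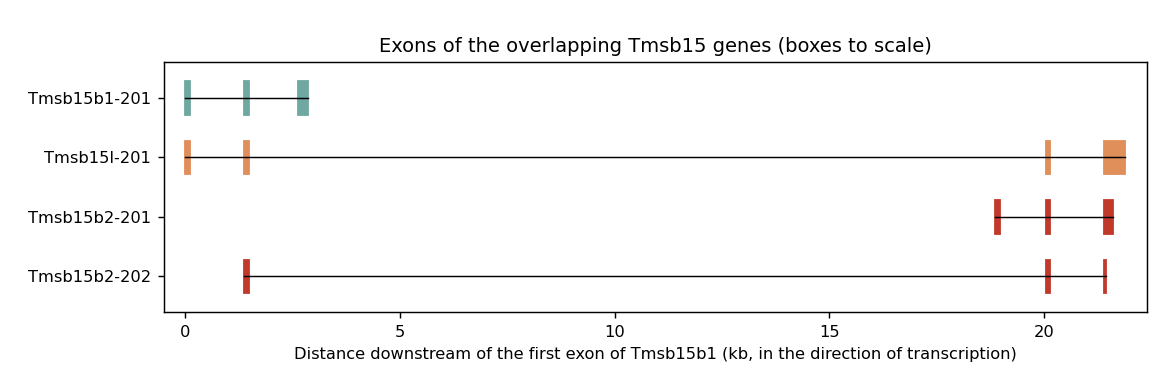
Exons of Tmsb15b1, Tmsb15l and Tmsb15b2 transcripts as boxes to scale along the distance in kb from the start of Tmsb15b1, read in the direction of transcription. The Tmsb15l transcript has its first exons in common with Tmsb15b1 and its last exons in common with Tmsb15b2, which leaves 33.9% of the bases of Tmsb15l and 23.1% of those of Tmsb15b2 to each gene alone.

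Upstream sequences of Tmsb15b2 and Tmsb15l are shown because the 2 rows had higher summed levels in the same class and their sequences before the start are nearly the same. They come from the RefSeq regions before each start (GRCm38.p6, minus strand). Each is 204 bases long, at chrX:136958026-136958229 for Tmsb15b2 and chrX:136976886-136977089 for Tmsb15l, and ends 46 and 11 bases before the RefSeq start of its gene. The 46 bases of Tmsb15b2 are left out because GENCODE places them in its first exon. Capitals mark the bases that differ.
Tmsb15b2: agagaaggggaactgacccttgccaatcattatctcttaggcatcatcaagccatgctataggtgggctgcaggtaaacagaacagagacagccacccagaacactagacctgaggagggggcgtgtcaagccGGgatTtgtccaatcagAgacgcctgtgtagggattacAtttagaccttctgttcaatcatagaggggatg
Tmsb15l: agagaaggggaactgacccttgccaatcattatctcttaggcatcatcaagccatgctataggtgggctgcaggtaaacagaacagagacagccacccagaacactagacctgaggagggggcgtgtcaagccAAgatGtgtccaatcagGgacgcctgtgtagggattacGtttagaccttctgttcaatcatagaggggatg
Aligned without gaps, they were identical at 199 bases (97.5%) and differed at 5. Tmsb15b1 has the same RefSeq upstream region as Tmsb15l. The motif CCAAT, searched on both strands, was found 2 times in each sequence and at least once in 29.1% of 32851 RefSeq upstream regions cut to 204 bases at their far end. CANNTG, the letters of an E-box, was found 0 times in both sequences and at least once in 59.7% of those regions. These are letters in a window and not binding sites.

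Cells held 200152 to 1182889 counts, with class medians of 717837 in hormone and 756006 in progenitor cells at E17.5 and 545760 and 490454 at E15.5 in the same order. The 6 hormone genes took 4.38% of counts in hormone cells and 0.0712% in progenitor cells at E17.5, and 5.51% and 0.0491% at E15.5. The ribosomal precursor row Rn45s took 9.29% in hormone and 9.52% in progenitor cells at E17.5, and 13.4% and 21.7% at E15.5. Rn45s also differed by plate. Over all cells it took 20.6%, 21.2% and 21.5% on EA01, EA02 and EA03. On EA05 it took 9.72%, near the 10.3% of EA06 and 8.83% of EA07. EA05 held 50 of the 98 hormone cells of E15.5 but 7 progenitor cells. How far this mix of plates set the E15.5 difference between classes was not tested. Summed over a plate, 8 immune genes reached 0 to 28.4 CPM in hormone and 0 to 13.7 CPM in progenitor cells, with Ptprc, Tyrobp and Lyz2 at 0 in both classes, and 6 endothelial genes reached 0 to 17.7 and 0 to 15.9 CPM, with Cdh5, Kdr, Tie1 and Plvap at 0 in both. The acinar list of 12 genes reached 12.8 to 4607 CPM in hormone and 9.08 to 227 CPM in progenitor cells, and the mesenchyme list of 8 genes 1.05 to 827 and 0 to 75 CPM. The median cell of either class held 0 CPM of both lists at each stage. Without the cells that held 1000 CPM of acinar or 100 CPM of mesenchyme genes, which were 5 of 30 hormone and 6 of 55 progenitor cells at E17.5 and 12 cells of each class at E15.5, the log2 ratios of hormone over progenitor cells were -0.71 for Tmsb4x and 3.70 for Tmsb15b2 at E17.5, and -2.78 and 5.58 at E15.5. The duct list of 9 genes, which the epithelium that gives rise to progenitors also expresses, reached 334 to 1929 CPM in hormone and 1626 to 3705 CPM in progenitor cells, and its part in the thymosin levels was not tested.

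All 5 genes differed by more than 2-fold between hormone and progenitor cells at E15.5, with Tmsb15b2 and Tmsb15l higher and Tmsb4x, Tmsb10 and Cotl1 lower in hormone cells. At E17.5, 3 of the 5 did, with Tmsb15b2 and Tmsb15l higher and Cotl1 lower. For comparison, 12.5% of 8432 genes measured at E17.5 were more than 2-fold higher in hormone cells and 18.4% lower, and at E15.5 16.7% of 7612 genes were higher and 13.1% lower. The median log2 ratio over all measured genes was -0.10 at E17.5 and 0.05 at E15.5. Because the genes were chosen for this contrast, nothing about their number can be read from these shares.

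Tmsb4x, the gene of thymosin beta 4, was lower in the hormone cells of every plate. Among all genes 6.52% of 9038 were lower in hormone cells on all 6 plates and 6.53% higher. The summed level of Tmsb4x was 882 CPM on EA06 and 159 CPM on EA07 in hormone cells, against 1498 and 638 CPM in the progenitor cells of the same plates at E17.5. At E15.5 it was 425, 341, 387 and 434 CPM in the hormone cells of EA01, EA02, EA03 and EA05, against 2123, 3134, 3626 and 2486 CPM in their progenitor cells. Over both stages the plate ranges of the classes overlapped, since hormone cells of EA06 were above progenitor cells of EA07. The log2 ratio over all plates of a stage was -0.89 (-0.93 to -0.86) at E17.5 and -2.80 (-2.82 to -2.78) at E15.5. At E17.5 the plates differed in size, with -0.76 on EA06 and -1.97 on EA07, and 1 hormone cell of EA06 with 4554 CPM gave 25.2% of the hormone-cell counts. Without that cell hormone cells stood at 353 CPM.

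In single cells Tmsb4x had no read in part of the hormone cells and a lower median over all of them. Over the 6 plates, hormone cells ran from 0 to 4554 CPM with a median of 271, and progenitor cells from 0 to 8722 CPM with a median of 1961. A read of Tmsb4x was found in 93 hormone cells (72.7%) and in 178 of 186 progenitor cells (95.7%), with the same shares after each cell was thinned to 200000 counts. A level of 1000 CPM was reached by 21 hormone cells (16.4%) and by 66.7% of progenitor cells. The distributions overlapped, with hormone cells spread over the lower part of the progenitor range.

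Tmsb10 was lower in hormone cells, as Tmsb4x was, with a smaller difference and without empty cells. It had reads in every hormone and progenitor cell. Hormone cells ran from 4.56 to 341 CPM with a median of 106.8, and progenitor cells from 51.9 to 663 CPM with a median of 252. By plate it stood at 187 and 79.6 CPM in hormone cells of EA06 and EA07, against 318 and 127.8 CPM in progenitor cells. On EA01, EA02, EA03 and EA05 hormone cells had 88, 69.1, 140.6 and 141.4 CPM, against 316, 311, 297 and 394 CPM in progenitor cells. Hormone cells were lower on all 6 plates and by more than 2-fold on 4, those of E15.5. The log2 ratio was -0.49 (-0.55 to -0.43) at E17.5 and -1.29 (-1.33 to -1.25) at E15.5. The Spearman correlation of Tmsb10 with Tmsb4x was taken within each plate and averaged over 6 plates. It was -0.15 (-0.48 to 0.24 by plate) in hormone cells and 0.40 (0.175 to 0.71) in progenitor cells. Per kb of exonic sequence, Tmsb4x exceeded Tmsb10 in both classes, with 335 and 97.4 CPM per kb in hormone cells and 626 and 138.2 CPM per kb in progenitor cells at E17.5.

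Cotl1 was lower in hormone cells on 5 of 6 plates, and many hormone cells had no read of it. Hormone cells had 1.84 and 73.9 CPM on EA06 and EA07, against 110 and 192 CPM in progenitor cells. At E15.5 they had 33.7, 117.5, 31.3 and 132.8 CPM on EA01, EA02, EA03 and EA05, against 292, 328, 385 and 125.7 CPM in progenitor cells. EA05, the plate with 7 progenitor cells, had near-equal levels, with a log2 ratio of 0.08 (-0.05 to 0.21). The ratio over a stage was -1.85 (-1.94 to -1.76) at E17.5 and -1.60 (-1.64 to -1.56) at E15.5, and -2.44 at E15.5 without EA05. Reads were found in 60 hormone cells (46.9%), in 75.8% of 186 progenitor cells and in 17 of 66 duct-plate cells (25.8%), with medians of 0 CPM in hormone and 207 CPM in progenitor cells and highest cells of 632 and 1402 CPM. On EA06 alone 2 of 14 hormone cells and 7 of 20 progenitor cells had a read, and the E17.5 ratio was -4.07 there and -1.32 on EA07.

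Tmsb15b2 had the largest log2 ratio of the 5 genes at both stages. In hormone cells it stood at 308 CPM on EA06 and 252 CPM on EA07, against 32.4 and 10.5 CPM in progenitor cells. At E15.5 hormone cells had 358, 303, 277 and 783 CPM on EA01, EA02, EA03 and EA05, against 4.43, 28.8, 1.62 and 5.29 CPM in progenitor cells. Every plate of hormone cells was above every plate of progenitor cells. The 5 rows were selected on this contrast, and the share of all genes with plate levels separated in this way was not counted. By a different criterion, more than 2-fold higher levels on all 6 plates were found for 1.14% of 9038 genes. More than 2-fold lower levels on all 6 were found for 0.775%.

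The log2 ratio of Tmsb15b2 was 3.73 (3.62 to 3.85) at E17.5 and 5.25 (5.14 to 5.36) at E15.5, or 17.1-fold and 55-fold without the added 5 CPM. Hormone cells ran from 0 to 4090 CPM with a median of 293, and progenitor cells from 0 to 562 CPM with a median of 0. Reads were found in 84.4% of hormone cells and 31 of 186 progenitor cells (16.7%), and in 5 of 66 duct-plate cells (7.58%), at median depths of 574909, 519986 and 438470 counts. A few progenitor cells gave much of the class level, and 1 cell of EA02 with 562 CPM gave 36.2% of the E15.5 progenitor counts, and without it the class stood at 6.98 CPM. On EA02 alone the log2 ratio was 3.19, and the E15.5 ratio was 6.29 without EA02 and 4.30 without EA05. The E17.5 ratio without EA07 was 3.07.

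Tmsb15l was higher in the hormone cells of all 6 plates. It stood at 247 and 29.8 CPM in hormone cells of EA06 and EA07, against 49.8 and 20.8 CPM in progenitor cells. On EA01, EA02, EA03 and EA05 it stood at 65.5, 49.8, 25.9 and 121.3 CPM in hormone cells, against 6.60, 14.2, 3.04 and 10.3 CPM in progenitor cells. Over both stages the plate levels of the classes overlapped, since the progenitor cells of EA06 were above the hormone cells of EA03 and EA07. The log2 ratio was 1.91 (1.82 to 2.01) at E17.5 and 2.90 (2.78 to 3.03) at E15.5. Without EA06 the E17.5 ratio was 0.43, and without EA05 the E15.5 ratio was 2.03. Reads were found in 89 hormone cells (69.5%), 37 of 186 progenitor cells (19.9%) and 6 of 66 duct-plate cells (9.09%), and after thinning in 54.7%, 19.4% and 6.06%.

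**Figure D2:**
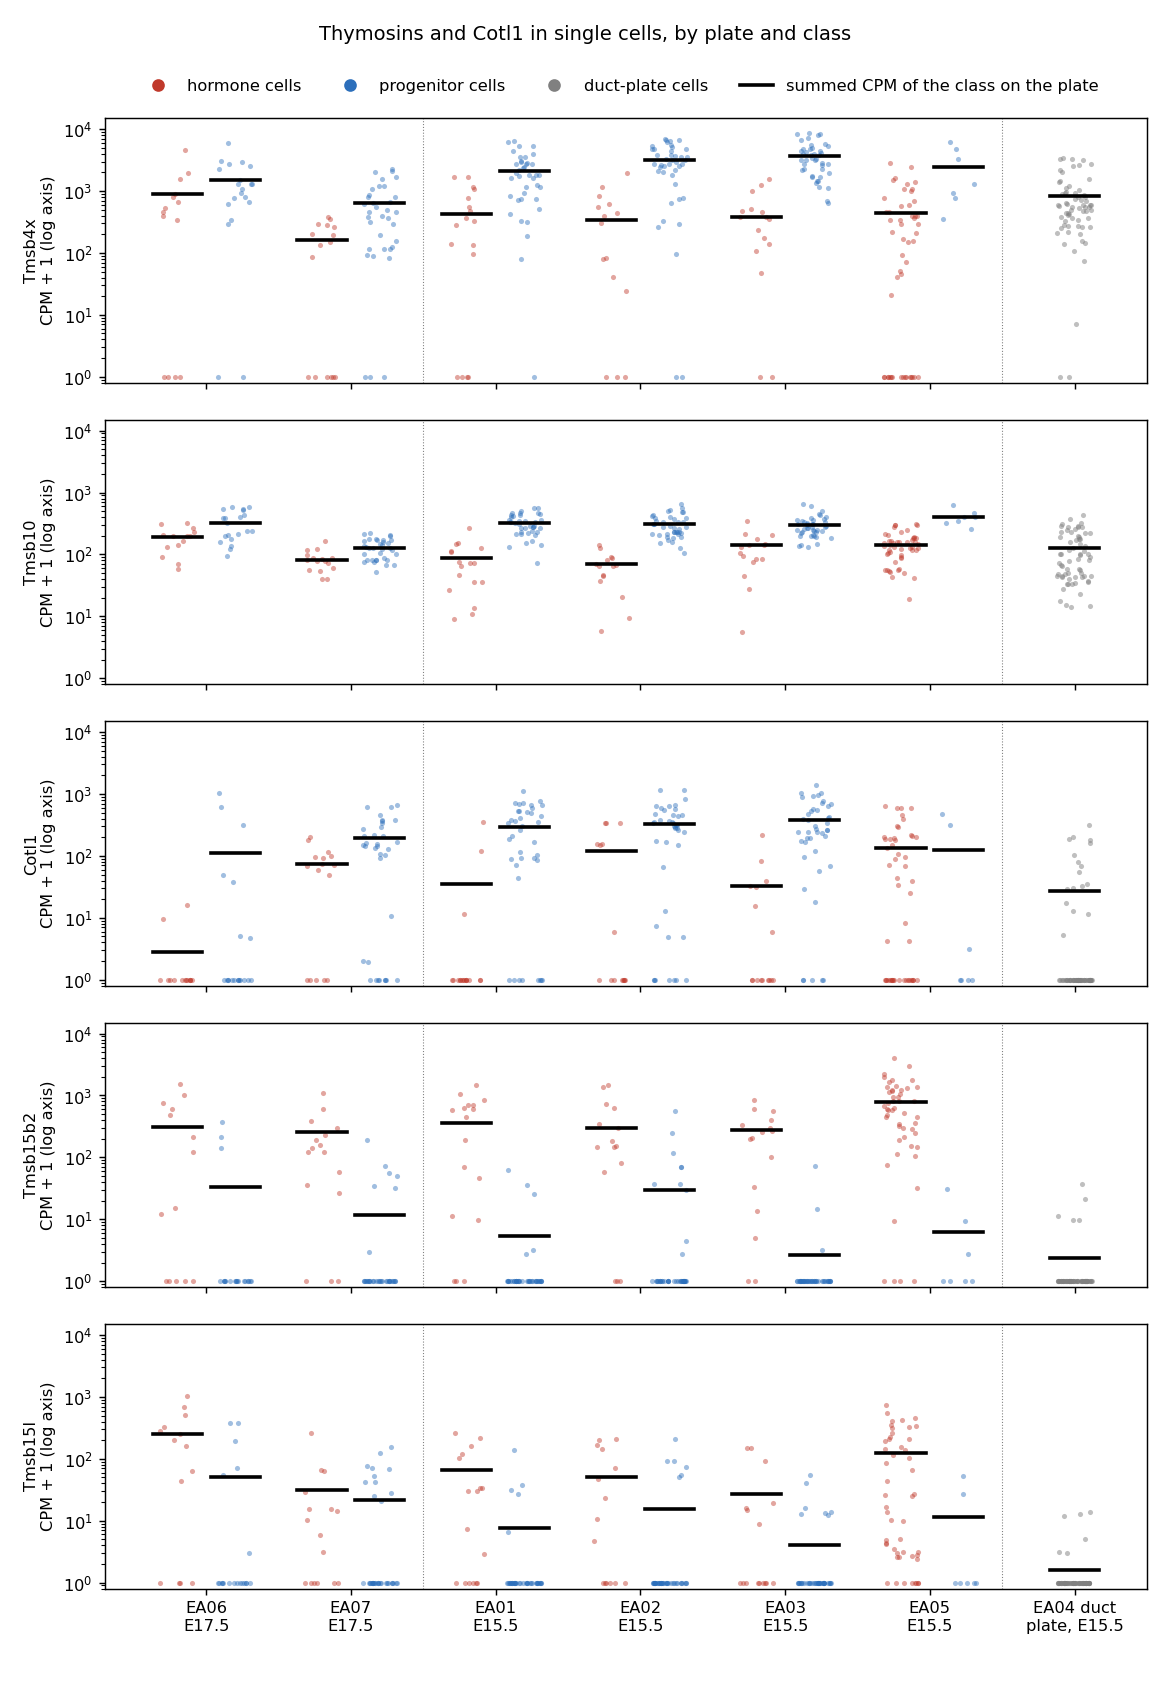
Each point is a cell, at its CPM plus 1 on a log axis, by plate, with hormone cells left of progenitor cells and the duct plate at the right, and black lines give the summed CPM of the class on the plate. Tmsb15b2 lines lie at 252 to 783 CPM in hormone cells and 1.62 to 32.4 CPM in progenitor cells, and Tmsb4x lines are lower in hormone cells on every plate.

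Reads of the overlapping Tmsb15 rows shared a cell somewhat more often than the share of cells with each row gives. This was not tested. Both a Tmsb15b2 and a Tmsb15l read were found in 80 hormone cells. That is 74.1% of the cells with Tmsb15b2, where 69.5% of all hormone cells had Tmsb15l. It is also 89.9% of the cells with Tmsb15l, where 84.4% of all hormone cells had Tmsb15b2. In hormone cells the Spearman correlation of these 2 rows within plates, averaged over 6 plates, was 0.35 (-0.02 to 0.62 by plate). Tmsb15b1, which is the third row of the locus and not among the 5 genes, had reads in 64 hormone cells, 53 of them with Tmsb15l. Its level was 67.4 CPM in hormone and 7.30 CPM in progenitor cells at E17.5, and 21.9 and 2.62 CPM at E15.5. With Tmsb15b2 and Tmsb15l summed as 1 row, the log2 ratio was 3.02 at E17.5 and 4.87 at E15.5. Tmsb15a, a further member of the group elsewhere on the X chromosome, had 0 counts in every hormone, progenitor and duct-plate cell.

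Among thymosin reads alone, which do not depend on how many counts other genes took, the Tmsb15 rows made up 44.2% (43.5 to 44.8) in hormone and 4.75% (4.56 to 4.95) in progenitor cells at E17.5. At E15.5 they made up 56.9% (56.5 to 57.2) in hormone and 0.657% (0.623 to 0.693) in progenitor cells. By plate the share ran from 37% to 61.9% in hormone cells and from 0.182% to 4.79% in progenitor cells. Most of the thymosin rows were selected on this contrast. Tmsb4x made up 43.9% and 79% of thymosin reads in the hormone and progenitor cells of E17.5, and 33.2% and 89.7% at E15.5. The share of Tmsb10 was 11.9% and 16.2% at E17.5, and near-equal at E15.5 with 9.99% in hormone and 9.60% in progenitor cells. All thymosin rows together held 1046 CPM in hormone and 1086 CPM in progenitor cells at E17.5, and 1252 and 3264 CPM at E15.5. These are shares of reads and not of molecules, since the rows differ in exonic length.

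The cells between progenitor and hormone cells showed the levels changing at different steps. The classes were ordered from Neurog3-positive Fev-negative cells (29 at E17.5 and 110 at E15.5) through Neurog3-positive Fev-positive cells (26 and 21) and Neurog3-negative Fev-positive hormone-negative cells (15 and 49) to hormone cells, an order taken from known biology and not from time in these cells. Tmsb4x stood at 1330, 372, 455 and 460 CPM along this order at E17.5 and at 3348, 849, 555 and 415 CPM at E15.5. Its largest step in CPM lay between Fev-negative and Fev-positive cells that still had Neurog3, also on each of the 6 plates alone. Some plates rest on very few cells for this and the following steps. Neurog3-positive Fev-positive cells numbered 2 on EA05 and 3 on EA03, and Neurog3-positive Fev-negative cells 5 on EA05. Tmsb15b2 stood at 14.3, 18, 87.1 and 275 CPM at E17.5 and at 7.03, 29.97, 471 and 598 CPM at E15.5. Its largest step at E15.5 lay between Neurog3-positive and Neurog3-negative Fev-positive cells, which held on 3 of 4 plates and not on EA01. In the Neurog3-negative Fev-positive cells of E17.5 its level was 279.7 CPM on EA06 and 29.8 CPM on EA07.

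Tmsb15l had 34.9, 21.3, 26.3 and 120 CPM at E17.5 and 8.72, 4.21, 70.9 and 92.1 CPM at E15.5, and its plates differed. On EA06 it stood at 78.1, 0, 52.1 and 247 CPM along the order, and on EA07 at 14.4, 26.2, 18.6 and 29.8 CPM. In the Neurog3-negative Fev-positive cells of E15.5 it had 1.26, 32.7, 15.1 and 126.6 CPM on EA01, EA02, EA03 and EA05, so that the level of 70.9 CPM was set largely by EA05. Tmsb10 differed in smaller steps, with 208, 143.3, 100.7 and 124.3 CPM at E17.5 and 326, 249, 226 and 125.03 CPM at E15.5. Cotl1 had 238, 102.4, 82.3 and 44 CPM at E17.5 and 359, 141.7, 57.3 and 103.2 CPM at E15.5.

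Summed over plates, levels moved in 1 direction over all 4 classes for Tmsb15b2 and Cotl1 at E17.5 and for Tmsb4x, Tmsb10 and Tmsb15b2 at E15.5, and the same genes did so after thinning. Few plates did so alone. Tmsb15b2 did on both plates of E17.5 and on 2 of 4 of E15.5, Tmsb4x and Tmsb10 each on 2 of 4 plates of E15.5, and Cotl1 on 1 of 2 plates of E17.5. On EA06 Cotl1 stood at 82.7, 158.6, 98.99 and 1.84 CPM. On EA01 Tmsb4x stood at 2491, 961.99, 322 and 425 CPM, and on EA03 Tmsb15b2 at 1.75, 0, 312 and 277 CPM.

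**Figure D3:**
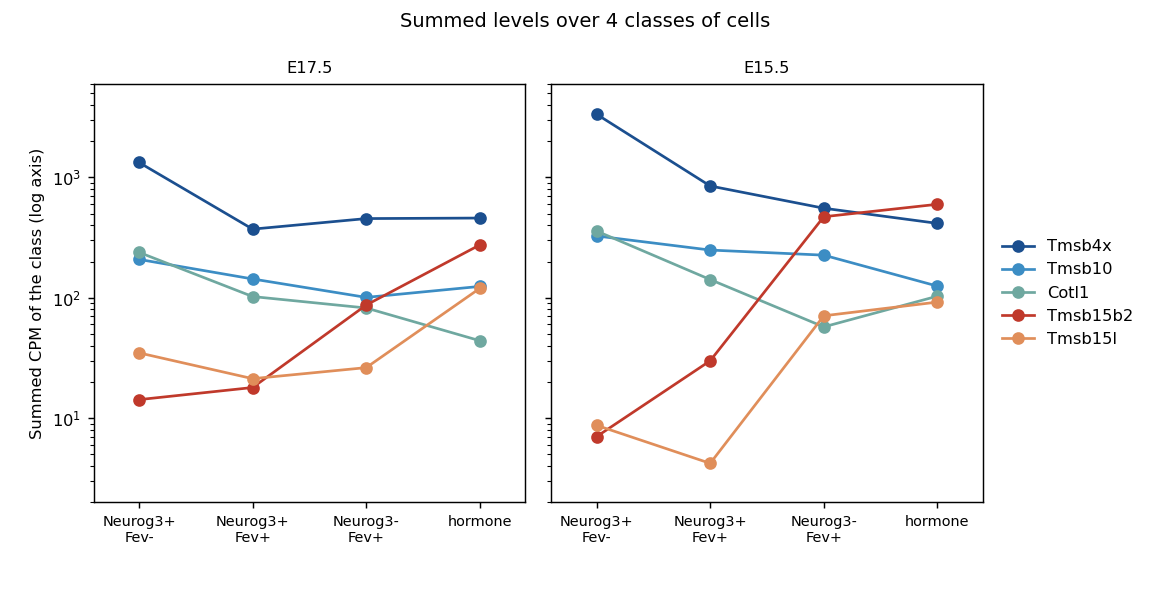
Summed CPM of each gene on a log axis over 4 classes of cells, E17.5 at the left and E15.5 at the right, in the order Neurog3-positive Fev-negative, Neurog3-positive Fev-positive, Neurog3-negative Fev-positive and hormone cells. Tmsb4x drops most at the first step and Tmsb15b2 is highest in hormone cells at both stages, at 275 and 598 CPM.

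Set against each other in single cells, Tmsb4x and Tmsb15b2 were mostly high in different classes, the contrast on which both rows were selected. With Tmsb4x called high at 1000 CPM and Tmsb15b2 at 20 CPM, 84 hormone cells (65.6%) were high for Tmsb15b2 alone, 4 for Tmsb4x alone, 17 for both and 23 for neither. Of 186 progenitor cells, 13 were high for Tmsb15b2 alone, 61.8% for Tmsb4x alone, 9 for both and 49 for neither. Neurog3-negative Fev-positive cells had both in 11 of 64 and neither in 25. Within hormone cells alone the opposition was not seen: the Spearman correlation of Tmsb4x and Tmsb15b2, taken within each plate and averaged over 6 plates, was 0.18 (-0.07 to 0.49 by plate). Cells of a plate share library preparation and depth, so this is a description.

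**Figure D4:**
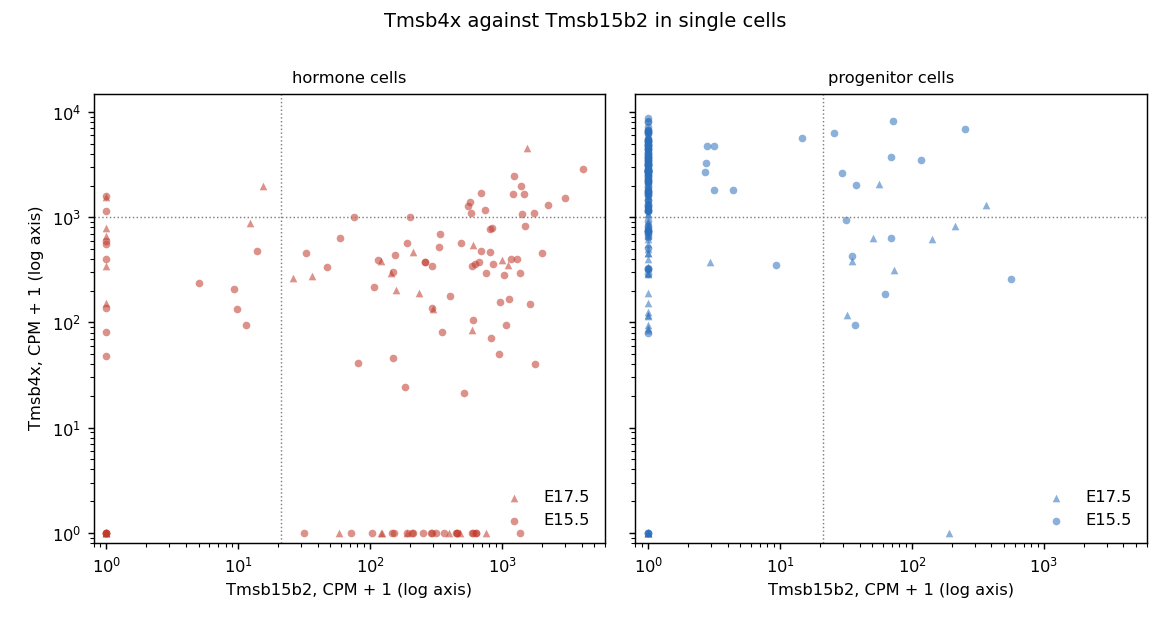
Tmsb4x against Tmsb15b2 in each cell, both as CPM plus 1 on log axes, hormone cells left and progenitor cells right, with dotted lines at 1000 and 20 CPM. Most hormone cells lie low and right, 84 cells (65.6%), and most progenitor cells high and left, 61.8%.

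Tmsb4x and Cotl1 had their highest levels in cells with 1000 CPM or more of Neurog3, without a steady rise over the lower ranges. In hormone-negative cells of the 6 plates, Tmsb4x stood at 658 CPM in 89 cells with Neurog3 under 20 CPM, 420 CPM in 18 cells from 20 to 200, 795 CPM in 25 cells from 200 to 1000, 2750 CPM in 88 cells from 1000 to 5000 and 2546 CPM in 55 cells from 5000. Cotl1 stood at 66.2, 32.8, 145.6, 308 and 347 CPM over the same ranges, and Tmsb10 at 215, 193, 205, 297 and 260 CPM. Tmsb15b2 went the other way, with 321, 49.9, 11.4, 8.51 and 5.60 CPM. The range from 20 to 200 holds 18 cells and rests on few cells per plate. Within progenitor cells the averaged within-plate correlation with Neurog3 was 0.43 for Tmsb4x (0.03 to 0.68 by plate) and 0.32 for Cotl1 (-0.02 to 0.61), over 186 cells and as a description.

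Hormone cells differed among themselves by the hormone they made most of. At E15.5 the 15 cells with Gcg, the glucagon gene, as their main hormone had 1135 CPM of Tmsb4x (median 1100), 1105 CPM of Tmsb15b2 and 302 CPM of Tmsb15l. The 54 cells with insulin as their main hormone had 250 CPM of Tmsb4x (median 142.6), 510 CPM of Tmsb15b2 and 56.8 CPM of Tmsb15l. Within EA05 alone, 9 Gcg cells had 1231 CPM and 27 insulin cells 193 CPM of Tmsb4x, and on the other E15.5 plates 6 Gcg cells had 939 CPM and 27 insulin cells 341 CPM. Tmsb15b2 was 1397 CPM in Gcg and 596 CPM in insulin cells of EA05, and 508 and 372 CPM on the other E15.5 plates, so that the 2 levels lay closer off EA05. Tmsb15l was 389 CPM in Gcg and 69.3 CPM in insulin cells of EA05, and 125.1 and 37 CPM on the other E15.5 plates. The 15 Gcg cells gave 51.8% of the Tmsb15l counts of hormone cells at E15.5. Tmsb10 was 111.5 CPM in Gcg and 125.2 CPM in insulin cells at E15.5. Of the 17 hormone cells high for both Tmsb4x and Tmsb15b2, 8 had Gcg as their main hormone, of 18 Gcg cells in all. Single-cell values overlapped, with Gcg cells from 0 to 2850 CPM and insulin cells from 0 to 1718 CPM of Tmsb4x at E15.5.

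Other hormone classes were small. At E15.5 Tmsb4x stood at 218 CPM in 13 Sst (somatostatin) cells, 420 CPM in 10 Ghrl (ghrelin) cells and 405 CPM in 6 Ppy (pancreatic polypeptide) cells, and Tmsb15b2 at 432, 559 and 489 CPM in that order. For Tmsb15b2, 1 cell gave 58.3% of the counts of the Ghrl cells, whose median was 171 CPM, and 1 cell 73.5% of those of the Ppy cells, whose median was 72.3 CPM. Off EA05 the 6 Ghrl cells had 65 CPM and the 2 Ppy cells 16.2 CPM of Tmsb15b2, and 277 and 235 CPM of Tmsb4x. At E17.5 the 9 Sst cells had 43.8 CPM of Tmsb15b2, with a median of 0, while 11 insulin cells had 463 CPM and a lowest cell of 121.7 CPM. The 3 Gcg cells of E17.5 had 56 CPM of Tmsb15b2 and 313 CPM of Tmsb15l, with 72.4% and 71.9% of the counts from 1 cell. The 3 Ppy cells of E17.5 all came from EA06 and had 2337 CPM of Tmsb4x, from 795 to 4554 CPM. Tmsb10 ran at E15.5 from 94.5 CPM in Ghrl to 177 CPM in Ppy cells, and off EA05 had 108.9 CPM in Ghrl and 83 CPM in Ppy cells.

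Between stages the levels within a class depended on which plates were included. In progenitor cells Tmsb4x stood at 858 CPM at E17.5, against 2929 CPM at E15.5 (log2 ratio -1.77), and Tmsb15l at 28.2 CPM at E17.5, against 7.97 CPM at E15.5 (1.35). These were the 2 of 5 genes past 2-fold, where 23.9% of 8041 genes were more than 2-fold higher at E17.5 and 5.72% lower. Without EA07 the ratio of Tmsb4x was -0.97, and without EA06 that of Tmsb15l was 0.99. Tmsb10 in progenitor cells had 176 CPM at E17.5 and 313 CPM at E15.5 (-0.81), with a ratio of -1.26 without EA06 and 0.02 without EA07. Cotl1 had 171 and 322 CPM (-0.89), with -1.51 without EA07 and 0.43 when EA05, with its 7 progenitor cells, was the only E15.5 plate. Tmsb15b2 had 16.1 and 10.9 CPM (0.41), with 1.36 without EA02, 1.24 without EA07 and -0.03 without EA06.

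The median log2 ratio over all genes in progenitor cells was 0.33, and TMM scaling moved all ratios by -0.35, which put Tmsb10 and Cotl1 past 2-fold as well. Fev-positive cells made up 26 of the 55 progenitor cells at E17.5, and there were 21 beside 110 Fev-negative ones at E15.5. Fev-negative progenitor cells alone had 1330 CPM of Tmsb4x at E17.5, against 3348 CPM at E15.5.

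In hormone cells Tmsb15b2 stood at 275 CPM at E17.5, against 598 CPM at E15.5 (log2 ratio -1.11), and Cotl1 at 44 CPM, against 103.2 CPM (-1.14). Among all genes 18.2% of 7946 were more than 2-fold higher at E17.5 and 9.17% lower, with a median of 0.17. Both differences rested on EA05, which held 50 of the 98 hormone cells of E15.5. Without it the E15.5 levels were 315 CPM of Tmsb15b2 and 57.9 CPM of Cotl1 and the ratios -0.19 and -0.36, and against EA05 alone the ratio was -1.49 for each gene. Cotl1 also stood at -0.45 without EA06 and -3.98 without EA07, and Tmsb15b2 at -0.95 without EA07.

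The ratios of the other 3 genes had opposite signs without EA06 and without EA07. Tmsb4x had 460 and 415 CPM in the hormone cells of E17.5 and E15.5, with ratios of -1.35 without EA06 and 1.08 without EA07. Tmsb10 had 124.3 and 125.03 CPM, with -0.62 without EA06 and 0.56 without EA07. Tmsb15l had 120 and 92.1 CPM, with -1.48 without EA06, 1.37 without EA07 and 1.25 without EA05. Stage, reporter line and plate cannot be told apart in any of these values.

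The plate with the duct code held 43 of 66 cells with high acinar markers, and it is described by its markers. Its summed acinar list held 37641 CPM with all 12 genes at 20 CPM or more, and its duct list held 2811 CPM with 7 of 9 genes. No cell of it reached the Neurog3 or hormone thresholds. All 5 genes were more than 2-fold higher in E15.5 progenitor cells, where 20% of 7859 genes were higher and 20% lower. Tmsb4x had 2929 CPM in progenitor and 828 CPM in duct-plate cells, Tmsb10 313 and 127.9 CPM, and Cotl1 322 and 26.1 CPM (log2 ratios 1.82, 1.26 and 3.397). Tmsb15b2 and Tmsb15l had 10.9 and 7.97 CPM in progenitor cells, against 1.34 and 0.617 CPM in duct-plate cells. Without EA02 their log2 ratios of 1.32 and 1.21 were 0.38 and 0.88, so that 3 of the 5 genes stayed past 2-fold.

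Within the duct plate Tmsb4x differed by the markers its cells carried. Its 13 cells with collagen genes at 1000 CPM or more had 2029 CPM, from 972 to 3407 CPM, which lies within the range of the progenitor cells. The 43 cells with acinar genes at 5000 CPM or more had 515 CPM, from 140 to 1447 CPM, and the 10 other cells had 558 CPM with a median of 179. Collagen cells had 266 CPM of Tmsb10 and acinar-marker cells 62.6 CPM. Tmsb15b2 was at or under 3.90 CPM in each of the 3 sets. Cotl1 stood at 55.7 CPM in collagen, 3.89 CPM in acinar-marker and 76.1 CPM in other cells, all below the 322 CPM of E15.5 progenitor cells.

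Of the other actin genes, a smaller share than of all genes was more than 2-fold higher in hormone cells at both stages. The share more than 2-fold lower was equal to that of all genes at E17.5 and larger at E15.5. These differences in share were not tested. Over 7 lists of actin regulators, without the 5 genes, 87 were measured at E17.5 and 7 were more than 2-fold higher in hormone cells (8.05%, against 12.5% of all genes), 16 lower (18.4%, against 18.4%) and 64 within 2-fold, with a median log2 ratio of -0.24. At E15.5 80 were measured, 9 were higher (11.2%, against 16.7%), 15 lower (18.8%, against 13.1%) and 56 within 2-fold, with a median of -0.10. Both cytoplasmic actins were lower in hormone cells on all 6 plates, with Actg1, cytoplasmic gamma actin, at 2063 CPM in hormone and 2949 CPM in progenitor cells at E17.5 and 1454 and 3386 CPM at E15.5 (log2 ratios -0.51 and -1.22). Actb, cytoplasmic beta actin, had log2 ratios of -0.41 and -1.05 at these stages. Of the actin and monomer-handling list, 1 of 12 measured genes was more than 2-fold lower at E17.5 and 2 of 12 at E15.5, and 0 were higher. Dstn, the filament-depolymerising protein destrin, had -0.55 at E17.5 and -0.76 at E15.5 and was lower on all 6 plates.

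Of the other lists, some of the genes with the largest E15.5 ratios are named. Stmn1, which sequesters tubulin dimers, had 24.2 CPM in hormone and 140 CPM in progenitor cells at E17.5 and 16.5 and 218 CPM at E15.5, and was lower on all 6 plates. Mapt, the microtubule-binding protein tau, had 88.3 CPM in hormone and 7.69 CPM in progenitor cells at E17.5 and 102.2 and 2.05 CPM at E15.5, and was higher on all 6 plates. Of the neuronal cytoskeleton list, 1 of 5 measured genes was higher and 2 lower at E17.5, and 1 and 1 at E15.5. Tpm4, a tropomyosin that coats filaments, had log2 ratios of -0.95 and -2.23 at E17.5 and E15.5. Myl12b, a myosin light chain, had 0.56 and 1.13. Myh10 of the same list had 1.21 at E15.5, higher on 4 plates and lower on 2, and was under 20 CPM at E17.5. Of the myosin and tropomyosin list 0 of 10 were higher and 1 lower at E17.5, and 2 of 8 higher and 1 lower at E15.5.

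Filament bundling and membrane-linking genes went both ways. Zyx, a focal adhesion protein, had -3.38 and -1.94 at E17.5 and E15.5. Marcksl1, a membrane-linked actin binder, had -1.01 and -2.03, and Flna, a filament cross-linker, -0.07 and -2.12 in that order. Each of Zyx, Marcksl1 and Flna was lower on 5 plates and higher on 1. Of the list 2 of 16 genes were higher and 3 lower at E17.5, and 3 of 15 higher and 4 lower at E15.5. The cofilin regulators and coronins had 4 of 8 lower and 0 higher at E17.5, and 3 of 9 lower and 1 higher at E15.5, Cotl1 left out. Limk2, a kinase that inactivates cofilin, had -1.47 and -1.10 at E17.5 and E15.5 and was lower on all 6 plates. Dbn1, the filament binder drebrin, had -1.12 and -1.73, and Ssh3 -1.40 and -1.23, each lower on 4 plates and higher on 2. Coro2b, a coronin, had 1.49 at E15.5, higher on 4 plates and lower on 2, and was under 20 CPM at E17.5. The Arp2/3 list, whose complex branches filaments, had 0 of 18 higher and 1 lower at E17.5 and 1 of 15 each way at E15.5, with Cyfip2 of the WAVE complex at 0.68 and 1.64. Formins, Ena/VASP and capping genes had 3 of 14 higher and 4 lower at E17.5 and 1 of 11 higher and 3 lower at E15.5, with Tmod2, which caps pointed ends, at 1.13 and 3.45.

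**Figure D5:**
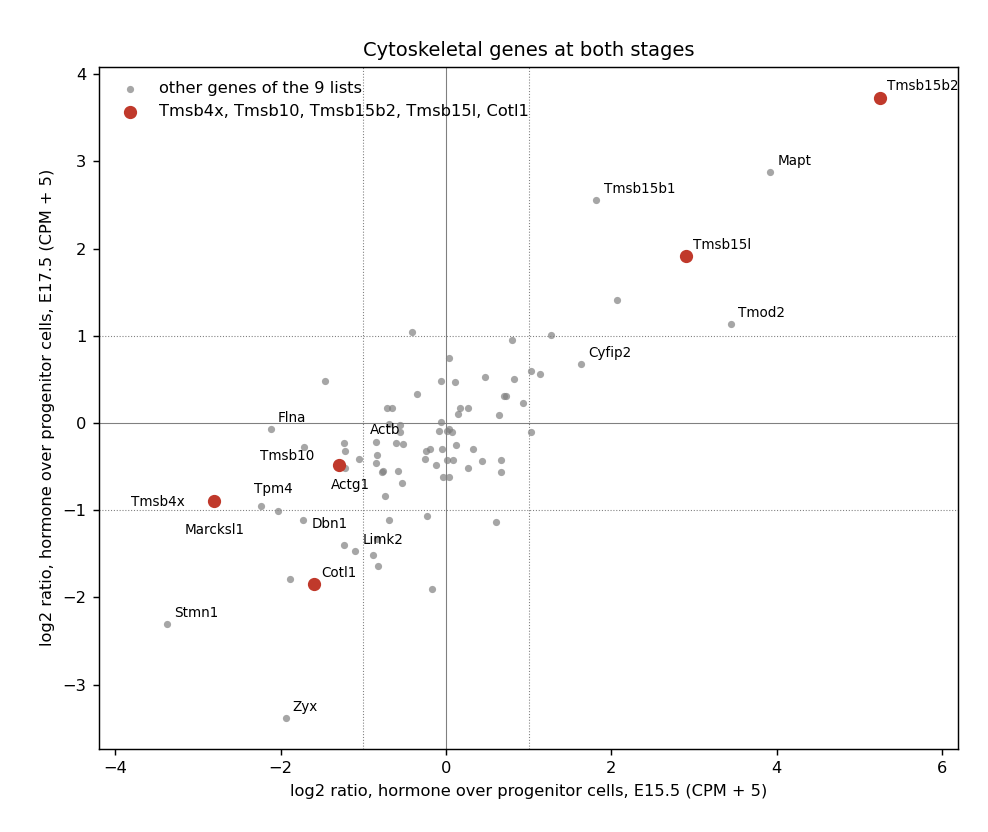
Log2 ratio of hormone over progenitor cells at E15.5 (horizontal) and at E17.5 (vertical) for the 86 genes of the 9 lists measured at both stages, with 5 CPM added to each level and dotted lines at 2-fold. Tmsb15b2 lies farthest to the upper right, at 5.25 and 3.73 and Stmn1 farthest to the left at E15.5.

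The genes most like each of the 5 over hormone and progenitor cells were found by the Spearman correlation within each plate, averaged over 6 plates, among 6606 genes and over 314 cells. For Tmsb4x they were Mdk, the heparin-binding growth factor midkine (0.58), Neurog3 (0.55) and Stmn1 (0.53), and for Tmsb10 Neurog3 (0.53), Stmn1 (0.53) and Mdk (0.52). For Tmsb15b2 they were Iapp, the beta-cell peptide amylin (0.56), Scg2, a secretory granule protein (0.53), and Maob, a monoamine oxidase (0.53). By plate these ran from 0.17 to 0.72 for Iapp, -0.01 to 0.69 for Scg2 and 0.20 to 0.76 for Maob. Tmsb15l was most like Tmsb15b2 (0.38), with which it shares exons, then Slc16a10, an amino acid transporter (0.35), and Zcchc18 (0.33). Cotl1 was most like Hn1 (0.47), Gadd45a, a growth-arrest and stress gene (0.45), and Mdk (0.45), the last from -0.105 to 0.656 by plate. Both classes were pooled here, and the 5 rows were selected on the contrast between them, which favours genes that differ between the classes. Neurog3 and the hormone genes set the classes, and the cells of a plate share library preparation and depth, so the values are a description.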

How the data were processed

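The authors deposited raw read counts per gene and cell from Smart-Seq2 libraries, whole numbers with no normalisation, made with STAR, HTSeq and FastQC on mm10 per the submitters' processing notes. The sources used here give no versions, annotation or handling of reads that fit more than 1 gene. Reads carry no molecular identifiers, Smart-Seq2 does not mark strand, and no doublet caller was run on these single-cell wells. The 495 cells fall into groups of 143 (Neurog3 code), 157 (endocrine code), 66 (duct code) and 129 (Neurog3-cre code), with 128 hormone and 186 progenitor cells. Counts were summed per class and plate and divided by summed totals (Python 3.11.15, pandas 2.3.3, scipy 1.17.1). Genes counted as measured had 20 CPM or more in either class. Exact Poisson, binomial and Clopper-Pearson intervals at 95% were used, and no test was run, since each class is 1 sample. The calculation was tested on simulated data. TMM factors (edgeR 4.0.16) and size factors (DESeq2 1.42.0) on class sums were alternatives. Genes were named as the 5 listed rows, some of the up to 4 genes per list with the largest ratio at E15.5, and 3 most alike genes per row. The genes and the lists (9 pathway lists, 7 of which hold 116 actin regulator genes with Cotl1 among them, and 13 cell type lists) were chosen with earlier results of these data known. The separate result of 1 pathway list is not reported here. Groups follow the labels, although column names use the knock-in's name for the E17.5 plates too. Transcripts are GENCODE M21 and upstream regions RefSeq, both GRCm38, which is mm10.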

Additional observations from a re-analysis of the deposited data

How the results depend on the processing

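The count of the 5 genes past 2-fold, hormone over progenitor cells, stayed at 2 to 4 at E17.5 and 4 to 5 at E15.5 under every scaling, threshold, filter, left-out plate and single plate tried. At E15.5 Cotl1 was the only one of the 5 to turn direction, with a log2 ratio of 0.076 on EA05 alone, against -3.43 on EA03 alone; the cause was not tested. With the median of cells in place of the summed level, ratios at E15.5 were -5.83 for Cotl1, 6.17 for Tmsb15b2 and 1.71 for Tmsb15l, and at E17.5 -3.40 for Cotl1 and 4.66 for Tmsb15b2. Over all genes, 1628 were higher at E17.5 and 2045 at E15.5 without a filter. A 5 CPM filter could not change these counts, since a gene past 2-fold with 5 CPM added must itself exceed 5 CPM. With 20 CPM added to each level, 607 were higher and 930 lower at E17.5, and 782 and 576 at E15.5. The main settings gave 1056 higher and 1548 lower at E17.5, and 1269 and 997 at E15.5. In progenitor cells, E17.5 over E15.5, TMM, DESeq2 factors, totals without Rn45s and hormone genes, and EA05 as the only E15.5 plate each put 4 of the 5 genes past 2-fold, against 2. Cotl1 had 0.43 against EA05. Leaving out 1 plate gave 2 to 3 genes past 2-fold between stages in progenitor cells and 1 (without EA05) to 3 in hormone cells. Progenitor over duct-plate counts ran from 3 (without EA02) to 5 without 1 plate. On EA01 to EA03, well rows D and H held 13 hormone and 0 progenitor cells, and rows A, B, E and F held 8 hormone cells and most progenitor cells. Within rows C and G, with 27 and 15, log2 ratios were -2.90 for Tmsb4x, -1.13 for Tmsb10, -2.01 for Cotl1, 5.75 for Tmsb15b2 (265 CPM against 0 counts) and 2.78 for Tmsb15l. That alternative, the stage ratios without 1 plate, Fev-negative progenitor cells and the cells without acinar or mesenchyme reads were chosen after seeing the data. No paired analysis was possible because the labels give no replicate numbers shared across groups and no test was run. Hormone and progenitor cells share plates, and their values are given plate by plate. Values on 1 plate alone rest on few cells, with 7 progenitor cells on EA05 and 14 hormone cells on EA06.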

Other observations

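Cells outside the compared classes were few. The 22 cells of E17.5 and 4 of E15.5 that were positive for both Neurog3 and a hormone had 484 and 90.4 CPM of Tmsb4x, 31.4 and 286 CPM of Tmsb15b2 and 55.6 and 249 CPM of Cotl1. Of these 26 cells, 0 were high for both Tmsb4x and Tmsb15b2 and 17 for neither. The 7 cells of E17.5 and 18 of E15.5 with neither Neurog3, Fev nor a hormone had 894 and 1133 CPM of Tmsb4x and 49.4 and 293 CPM of Tmsb15b2. Cotl1 had 0 counts in the 7 and 102.7 CPM in the 18.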
